A study of Mus musculus with 34 samples.

Results

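The common gamma-chain cytokine receptors comprise 8 genes here, chosen by name: Il7r, Il2ra, Il2rb, Il2rg, Il4ra, Il9r, Il15ra and Il21r. All 8 were listed among the 24505 gene names of the Lck-Cre table, and 4 of them (Il2rb, Il4ra, Il9r and Il21r) among the 2076 genes of the Vav1-iCre table. The study sequenced RNA from CD4- and CD8-double-negative (DN) thymocytes of C57BL6/J mice in 34 libraries, and asked what happens when Bcl11b, a zinc-finger factor of T-lineage commitment, carries floxed alleles in the presence of Cre. Per the labels, RNA came from 300000 cells a library. In the Lck-Cre series the HOM group (Bcl11b flx/flx, 5 libraries) was sorted as YFP+CD25+ cells with no DN stage in its label. The HET DN3 group (Bcl11b flx/+, 6 libraries) and the WT DN3 group (Bcl11b +/+, 5 libraries) were YFP+CD25+. The HET DN2 group (Bcl11b flx/+, 5 libraries) and the WT DN2 group (Bcl11b +/+, 4 libraries) were YFP-CD25+, so DN stage and reporter change together. The Vav1-iCre groups were HOM (flx/flx, 3 libraries), HET (flx/+, 4 libraries) and WT (+/+, 2 libraries), all YFP+CD25+ with no stage in the label. Every group, WT included, carried a Cre transgene. The Lck promoter drives expression in thymocytes and the Vav1 promoter in blood cells from early progenitors on. The labels give no age, animal, litter or batch, so p-values measure only the spread between these libraries, which may be technical.

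Cytokine receptors of this family pair a private chain with the shared gamma chain, the product of Il2rg. The gamma chain binds the kinase JAK3 and the private chain usually JAK1, and ligand binding leads to phosphorylation of STAT proteins, mostly STAT5. In early thymocytes the interleukin-7 (IL-7) receptor is the best known member: in mice that lack it, thymocyte development is largely arrested at the DN2 stage. Il2ra encodes CD25, which is not needed for thymocyte development but is the surface marker of the DN2 and DN3 stages and was one of the markers used for the sort.

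Promoter sequences are shown for 4 members whose levels moved in the allele series, Il7r and Il9r, which both differed at 1 floxed allele, and the neighbours Il4ra and Il21r, which were both lower in HOM than in HET DN3 cells. Each is the 250 bases before the annotated start from RefSeq on build GRCm38.p6, written 5′ to 3′ on the strand of the gene, with matches to 6 short motifs in capitals. The deposited files use build mm9, so these coordinates are not those of the files. The table held 8 entries for 7 members, and Il2rb is named only.

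Il7r, chr15:9529877-9530126, minus strand: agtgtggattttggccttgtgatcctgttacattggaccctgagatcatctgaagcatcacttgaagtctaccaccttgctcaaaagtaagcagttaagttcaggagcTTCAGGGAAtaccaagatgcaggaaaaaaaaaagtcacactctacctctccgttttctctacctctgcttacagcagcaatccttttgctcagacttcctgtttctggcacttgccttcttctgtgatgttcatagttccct

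Il9r, chr11:32200280-32200529, minus strand: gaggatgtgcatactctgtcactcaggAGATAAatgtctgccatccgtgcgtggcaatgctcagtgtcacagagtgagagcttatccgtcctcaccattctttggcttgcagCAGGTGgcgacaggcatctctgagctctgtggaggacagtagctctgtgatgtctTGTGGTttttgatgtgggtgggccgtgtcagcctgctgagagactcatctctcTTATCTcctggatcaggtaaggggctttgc

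Il4ra, chr7:125552021-125552270, plus strand: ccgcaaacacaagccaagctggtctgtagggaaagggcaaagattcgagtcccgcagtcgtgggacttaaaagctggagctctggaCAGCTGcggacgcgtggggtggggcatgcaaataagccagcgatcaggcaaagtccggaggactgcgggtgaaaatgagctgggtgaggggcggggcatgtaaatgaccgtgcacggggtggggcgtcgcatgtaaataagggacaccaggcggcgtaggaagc

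Il21r, chr7:125603179-125603428, plus strand: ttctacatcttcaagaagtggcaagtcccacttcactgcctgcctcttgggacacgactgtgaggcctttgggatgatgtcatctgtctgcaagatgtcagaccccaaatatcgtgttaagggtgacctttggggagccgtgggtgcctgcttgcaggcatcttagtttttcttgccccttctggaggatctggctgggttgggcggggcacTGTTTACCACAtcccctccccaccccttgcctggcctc

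Both strands were searched. The letters of the RUNX motif were TGTGGT. The E-box had a first form, CAGGTG, as well as a second form that was spelled CAGCTG. The GATA motif was spelled AGATAA. The STAT motif was TTC and, after 3 further bases, GAA, while the FOXO motif was spelled GTAAACA. The capitals of Il7r mark 1 STAT match, 142 to 134 bases before the start. Il9r held a RUNX match at 83 to 78, the first E-box at 138 to 133 and GATA matches at 223 to 218 on the gene's strand and at 30 to 25 on the other strand. In Il4ra the capitals mark the second E-box, at 164 to 159. Il21r held a FOXO match at 38 to 32 and a RUNX match at 33 to 28, both on the other strand and sharing 2 bases. Over 32841 RefSeq promoter windows of the same length, 14.0% held the RUNX letters, 17.2% the first and 13.0% the second E-box, 9.99% the GATA letters, 7.02% the STAT spacing and 3.17% the FOXO letters. Of the 8 entries, 3 held a RUNX match (Il9r, Il21r and Il2rg), 2 the first E-box, 2 the second E-box and 1 each a GATA, a STAT and a FOXO match. A match describes letters in the window and is not a measured binding site.

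Levels are given as RPKM, the reads of a gene scaled by its exon length and by the total reads of the library, computed from the deposited counts, which allows levels to be set side by side between genes per length. Lck-Cre libraries held 15772841 to 43105091 counted reads. Bcl11b read 106 ± 13.5 RPKM in WT DN3 (n = 5), 104 ± 11.8 in HET DN3 (n = 6) and 49.6 ± 10.3 in HOM (n = 5), and 145 ± 15.1 in HET DN2 (n = 5) against 148 ± 12.4 in WT DN2 (SD, n = 4). All HOM libraries lay below all others, and HET libraries overlapped WT libraries of the same stage. Counts run over all exons and the labels do not name the floxed ones, so this level does not measure the deletion itself. Of 11 genes that mark DN thymocytes and their stages, 11 averaged at least 1 RPKM in every Lck-Cre group but WT DN3, where 10 did. Libraries of 2 kinds stood apart. Clu, a gene of thymic epithelium, read 132 to 1276 CPM (counts scaled by the library total) in 6 libraries (replicates 2 and 3 of HOM, replicates 2 and 3 of HET DN3, and replicates 1 and 2 of HET DN2) and at most 1.29 in the other 19. Cd4, a marker of later T cells, read 69.4 RPKM in WT DN2 replicate 2 and 80.3 in HET DN3 replicate 1, and at most 13.9 in the other 23. Results that rest on these libraries are given with and without them. In bulk RNA, fewer cells of a type and less RNA per cell cannot be told apart.

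With both Bcl11b alleles floxed, the receptor set changed in composition: Il7r, Il9r and Il2rb were higher in HOM than in WT DN3 cells, Il21r was lower, and Il2rg and Il2ra were modestly higher. Fold changes are on the log2 scale with the standard error (SE), and a gene is called where the 2-sided edgeR quasi-likelihood test gave a p under 0.05 after Benjamini-Hochberg adjustment over the 12218 genes tested (adjusted p). Between HOM and WT DN3, 5 of 8 members were called higher and 1 lower, where 39.4% of all genes tested were called, 19.8% higher and 19.7% lower. The split was also 5 higher and 1 lower without the 6 libraries of high Clu, without the 2 of high Cd4 and without all 8. Of the 5, the Il2rg call was lost on leaving out most single libraries compared (adjusted p 0.0602 to 0.103). The members' median log2 fold change was 0.49, against 0.01 over all genes tested. Because the members and lists were chosen with earlier results of these data known, such counts and medians are descriptions. Between HOM and HET DN3, 2 members were called higher (Il7r and Il9r) and 2 lower (Il21r and Il4ra), where 24.8% of all genes were called, 11.8% higher and 13.0% lower. Between HET DN3 and WT DN3, Il7r and Il9r were called higher and none lower, where 7.37% of all genes were called, 4.31% higher and 3.06% lower. HOM and HET DN3 share their WT DN3 comparator, so the 2 comparisons with it are not independent.

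Markers of the DN stages moved beside the receptors. Of the 11 stage markers, 3 were called higher and 6 lower in HOM than in WT DN3, where 39.4% of all genes were called. Bcl11b itself was among the lower. Between HET DN3 and WT DN3, Cd44 was called higher (7.11 ± 7.47 against 0.585 ± 0.371 RPKM, log2 fold change 3.56, adjusted p = 0.0238) and none lower, where 7.37% of all genes were called. The SD of Cd44 in HET DN3 exceeded its mean, so the libraries were uneven. No Cd44 value is given without the libraries that stood apart. Kit, the stem cell factor receptor of the DN2 stage, read 49.7 ± 9.81 RPKM in HOM against 9.43 ± 3.46 in WT DN3 (log2 fold change 2.36, adjusted p = 1.39e-07), and 23.5 ± 5.23 in WT DN2. Notch3 read 29.6 ± 10.3 in HOM against 111 ± 18.5 in WT DN3 (-1.93, adjusted p = 4.48e-06), and Cd3e, a chain of the T cell receptor complex, 204 ± 34.7 against 379 ± 52.9 (-0.92, adjusted p = 4.14e-05). Cpa3, a carboxypeptidase of early thymocytes and mast cells, read 25.8 to 87.9 RPKM in HOM against 0.804 to 26.2 in WT DN3, and 52.0 to 65.0 in WT DN2. The part of stage in the receptor levels was not tested.

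**Figure D1:**
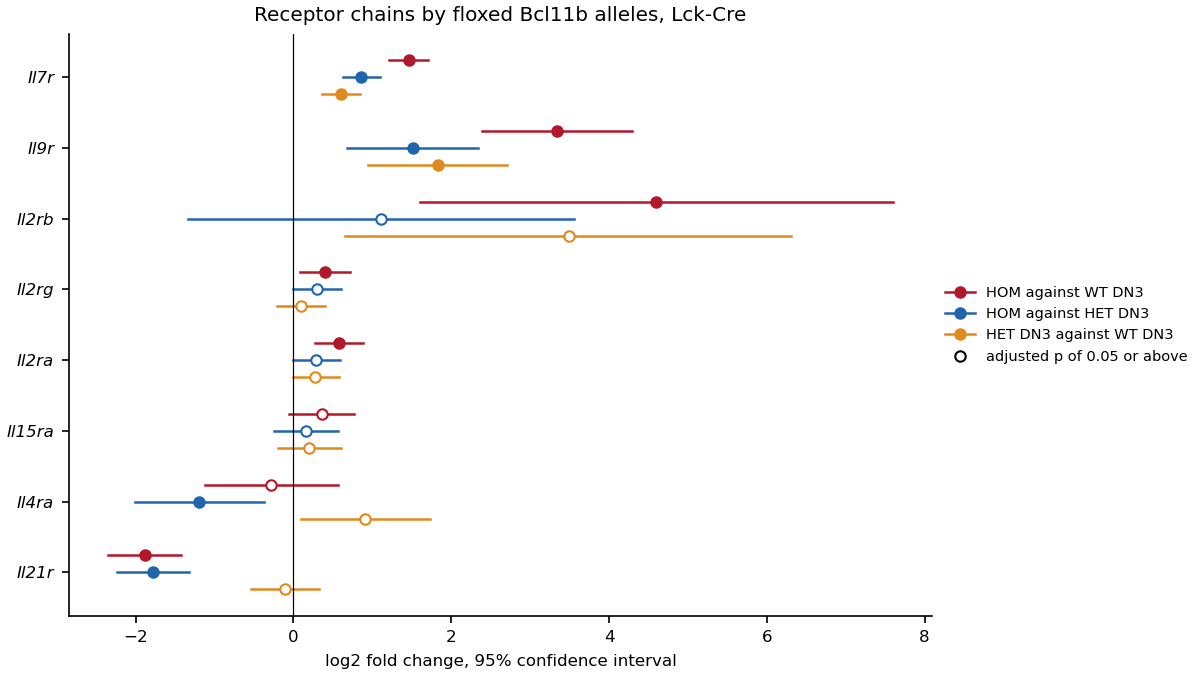
log2 fold change (x axis) of the 8 receptor chains (rows) for HOM against WT DN3, HOM against HET DN3 and HET DN3 against WT DN3 in the Lck-Cre series. Points are edgeR estimates, bars 95% confidence intervals and open points have an adjusted p of 0.05 or above; Il7r and Il9r are filled and right of 0 in all 3 comparisons, and Il21r is near 0 in HET DN3 against WT DN3 but left of 0 in both HOM comparisons.

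Il2rg, the shared chain, was the second most abundant member by RPKM in every Lck-Cre group, after Il2ra, and moved least of the called genes. HOM libraries held 132, 119, 122, 91.4 and 141 RPKM and WT DN3 libraries 90.6, 80.2, 88.4, 104 and 87.3. Of the HOM libraries, 4 lay above every WT DN3 library and replicate 4 lay among them. The log2 fold change was 0.40 (SE 0.15, adjusted p = 0.0428). This call was lost on leaving out any 1 of the libraries compared other than replicate 4 of either group (adjusted p 0.0602 to 0.103). It was also lost without the filter on low levels (0.0758) and when blocked by replicate number (0.0561). HET DN3 libraries ranged from 65.3 to 119 RPKM with a median of 104 and overlapped WT DN3 (log2 fold change 0.10, SE 0.15, adjusted p = 0.693). HOM against HET DN3 gave 0.30 (SE 0.15, adjusted p = 0.139), and 0.40 without HOM replicate 4 (adjusted p = 0.0481). Il2rg overlaps Gm20489, annotated on the same strand in GENCODE M21, and reads of overlapping genes cannot be told apart in these counts.

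Il7r, the private chain for IL-7, stepped up with each floxed allele. Its levels were 34.3, 36.0, 28.1, 32.2 and 31.6 RPKM in WT DN3 libraries, 42.4 to 57.8 in HET DN3 libraries with a median of 51.1, and 93.9, 106, 82.4, 84.4 and 89.6 in HOM libraries. The 3 groups did not overlap. Relative to WT DN3 the log2 fold change was 1.46 in HOM (SE 0.12, fold 2.75, adjusted p = 6.22e-09) and 0.60 in HET DN3 (SE 0.12, fold 1.51, adjusted p = 0.0148). HOM exceeded HET DN3 by a further 0.86 (SE 0.11, adjusted p = 5.46e-06). The step to the second floxed allele was not distinguishable from the step to the first: their difference was 0.27 on the log2 scale, with a 95% interval of -0.14 to 0.67 (adjusted p = 0.396). Leaving out WT DN3 replicate 3 gave 0.56 for HET DN3 against WT DN3 (adjusted p = 0.0661), and leaving out all 8 libraries that stood apart gave 0.68 (adjusted p = 0.000263).

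Since Il2rg moved little, the Il7r to Il2rg ratio within a library followed Il7r. That ratio, which does not depend on scaling between libraries, was 0.364 ± 0.0559 in WT DN3, 0.527 ± 0.122 in HET DN3 and 0.767 ± 0.131 in HOM (SD, n = 5, 6 and 5). Its range in HOM, 0.636 to 0.924, lay above that of WT DN3, 0.31 to 0.449, while HET DN3, 0.396 to 0.744, overlapped both. In DN2 cells the ratio was 0.455 ± 0.116 in HET and 0.366 ± 0.0445 in WT. WT DN2 and WT DN3 cells thus had like ratios, although both genes were lower at DN3.

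Il9r, the private chain for IL-9, a cytokine best known from mast cells and type 2 immunity, showed a larger rise than Il7r. WT DN3 libraries held 3.89, 3.67, 2.88, 3.06 and 3.39 RPKM, HET DN3 libraries 11.9, 5.75, 19.0, 12.2, 13.1 and 12.4, and HOM libraries 37.0, 42.3, 40.8, 25.9 and 29.0. Again the 3 groups did not overlap. The lowest and the highest HET DN3 values, 5.75 and 19.0, came from the 2 libraries of that group with high Clu. Without them the HET DN3 mean was 12.4 ± 0.485 RPKM (n = 4), and with them 12.4 ± 4.19 (SD, n = 6).

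Against WT DN3, Il9r changed by 3.34 on the log2 scale in HOM (SE 0.46, fold 10.2, adjusted p = 5.37e-06) and by 1.83 in HET DN3 (SE 0.43, fold 3.56, adjusted p = 0.025). HOM exceeded HET DN3 by 1.51 (SE 0.40, adjusted p = 0.0073). The 2 allele steps differed by -0.32, with an interval of -1.73 to 1.09 (adjusted p = 0.798). For HET DN3 against WT DN3 the call was lost on leaving out WT DN3 replicate 3, 4 or 5 or HET DN3 replicate 1 or 3 (adjusted p 0.0515 to 0.105). Without the 6 libraries with high Clu the change was 1.84 with an adjusted p of 1.45e-06. Relative to Il7r in the same library, Il9r was 0.104 ± 0.0066 in WT DN3, 0.246 ± 0.0819 in HET DN3 and 0.384 ± 0.0749 in HOM. Summed markers of cells known to express this receptor were also higher in HOM than in WT DN3, without overlap. The 4 mast cell and basophil markers summed to 0.187 to 1.77 RPKM in HOM and 0 to 0.162 in WT DN3, with Fcer1a at 0 in every WT DN3 library. None of the 4 averaged 1 RPKM in any Lck-Cre group, so these sums lie near the floor. The sums in WT DN2 (0.044 to 0.443) and HET DN2 (0 to 0.487) overlapped those of HOM. The 6 markers of type 2 innate lymphoid cells include Gata3 and Rora. They summed to 119 to 153 RPKM in HOM and 102 to 117 in WT DN3. Of them, 3 averaged at least 1 RPKM in HOM and 2 in WT DN3. Their sum was higher in WT DN2, at 168 to 187 RPKM, where Il9r was 1.40 to 2.39. In HET DN2 it was 127 to 179 and in HET DN3 115 to 144. The part of such cells in the Il9r level was not tested.

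**Figure D2:**
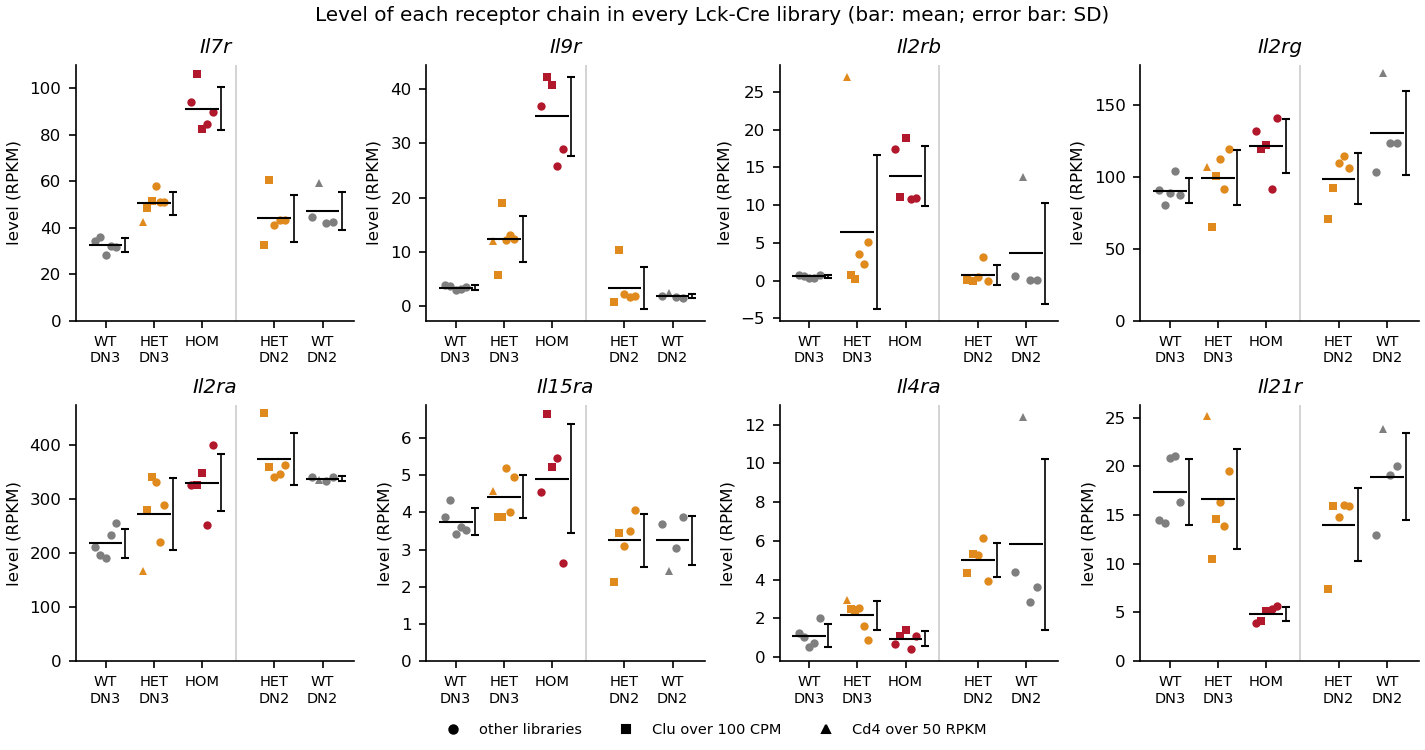
Level in RPKM (y axis, each panel with its own scale) of the 8 receptor chains in every Lck-Cre library, by group (x axis): WT DN3, HET DN3 and HOM, then HET DN2 and WT DN2. Points are libraries, horizontal bars group means and vertical bars 1 SD either side (which can reach below 0); squares are the 6 libraries with Clu over 100 CPM and triangles the 2 with Cd4 over 50 RPKM. Il7r and Il9r climb from WT DN3 through HET DN3 to HOM without overlap, Il21r is low in HOM, and the high Il2rb points outside HOM are triangles.

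Il2rb, the signalling chain shared by the IL-2 and IL-15 receptors and a mark of natural killer cells and memory T cells, was scarce in WT DN3 cells and present in all HOM libraries. HOM libraries held 17.5, 11.1, 18.9, 10.8 and 11.0 RPKM, from 581 to 1606 reads. WT DN3 libraries held 0.754, 0.617, 0.300, 0.401 and 0.735 RPKM, from 28 to 85 reads. The lowest HOM library stood far above the highest WT DN3 library. The log2 fold change was 4.60 (SE 1.45, 95% interval 1.60 to 7.60, adjusted p = 0.0154).

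HET DN3 libraries were scattered, with Il2rb at 27.0, 0.779, 0.158, 3.48, 2.25 and 5.11 RPKM, and overlapped both HOM and WT DN3. Their difference from WT DN3, 3.49 (SE 1.37), was not called by edgeR (adjusted p = 0.0951), while DESeq2 gave 0.0445. The difference of HOM from HET DN3, 1.11 (SE 1.18), was not called either (adjusted p = 0.534), while limma on log2(RPKM + 1) gave 0.0466. Replicate 1, at 27.0 RPKM, is the HET DN3 library with Cd4 at 80.3 RPKM and a summed level of 5 mature T cell markers of 134 RPKM. Without the 2 libraries of high Cd4, HOM exceeded HET DN3 by 2.57 (adjusted p = 0.0656) and HET DN3 exceeded WT DN3 by 2.03 (adjusted p = 0.225).

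Markers of other cells moved with Il2rb to different degrees. The summed RPKM of the 5 mature T cell markers (Cd4, Cd8a, Cd8b1, Ccl5 and Cd40lg), none at 0 in every library of a group, was 37.8, 27.0, 19.8, 40.0 and 6.08 in HOM, against 15.4, 10.3, 5.65, 5.40 and 4.55 in WT DN3. HOM replicate 5, whose sum lay within the WT DN3 range, had Il2rb at 11.0 RPKM, as high as HOM replicates 2 and 4. Of 10 markers of natural killer cells and type 1 innate lymphoid cells, 4 averaged at least 1 RPKM in HOM. The number was 2 in WT DN3 and also 4 in HET DN3, HET DN2 and WT DN2. The sum of the 10 ran from 432 to 851 RPKM in HOM against 180.5 to 231 in WT DN3. It was 220.2 to 379 in HET DN3, 58.1 to 157 in HET DN2 and 74.2 to 136 in WT DN2. The same HOM replicate 5 had the highest of these sums, 851 RPKM. Gzma, a granzyme, made up most of the summed level, at 511 ± 144 RPKM in HOM and 196 ± 21.5 in WT DN3. The receptor adaptor Fcer1g read 62.8 ± 13.1 against 0.616 ± 0.501, and the adaptor Tyrobp 17.3 ± 6.20 against 1.21 ± 1.67. Ncr1, an activating receptor of natural killer cells, read 0 to 0.513 RPKM in HOM and 0 in every WT DN3 library. The part of such cells in the Il2rb level was not tested.

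**Figure D3:**
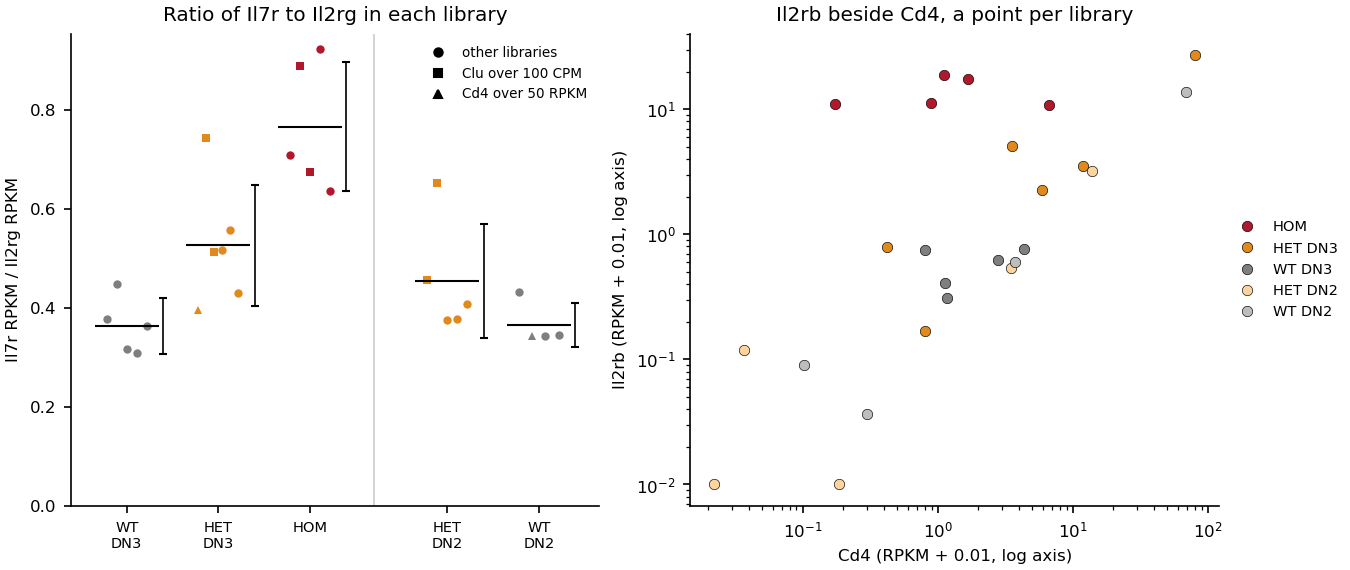
Left, Il7r RPKM divided by Il2rg RPKM (y axis) in each Lck-Cre library by group (x axis), with means and SD, where HOM lies above WT DN3. Right, Il2rb against Cd4, both as RPKM + 0.01 on log axes, a point per library; the 2 libraries with Cd4 at 69.4 and 80.3 RPKM have Il2rb at 13.7 and 27.0, while the 5 HOM points hold 10.8 to 18.9 RPKM of Il2rb with Cd4 at 0.164 to 6.70.

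The other chains of the IL-2 and IL-15 receptors moved less. Il2ra was the most abundant member in every Lck-Cre group, at 329.6 ± 53.2 RPKM in HOM, 271 ± 66.5 in HET DN3 and 217 ± 26.9 in WT DN3. HOM overlapped WT DN3 in 1 library (251 RPKM, against a WT DN3 maximum of 255), and the log2 fold change was 0.58 (SE 0.15, adjusted p = 0.00392). Because CD25, its product, was a sorting marker, this level describes cells chosen as CD25+. HET DN3 against WT DN3 gave 0.28 (SE 0.14, adjusted p = 0.187), and HOM against HET DN3 0.29 (SE 0.14, adjusted p = 0.136), or 0.39 without HOM replicate 4 (adjusted p = 0.0433). Il15ra, which presents IL-15 to neighbouring cells, lies 12517 bases from Il2ra on chromosome 2. It read 4.91 ± 1.47 RPKM in HOM, 4.42 ± 0.578 in HET DN3 and 3.75 ± 0.362 in WT DN3. Its change in HOM against WT DN3, 0.36, had an interval of -0.06 to 0.77 (adjusted p = 0.163). Leaving out HOM replicate 5, at 2.65 RPKM, gave 0.51 and an adjusted p of 0.0287.

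Il21r, the private chain for IL-21, a cytokine of helper T cells, was the one member called lower in HOM than in WT DN3. HOM libraries held 3.87, 4.14, 5.15, 5.31 and 5.61 RPKM, HET DN3 libraries 10.5 to 25.2 with a median of 15.5, and WT DN3 libraries 14.5, 14.2, 20.9, 21.1 and 16.3. All HOM libraries lay below all others of the Lck-Cre series, DN2 included. The log2 fold change was -1.88 in HOM against WT DN3 (SE 0.23, adjusted p = 9.31e-07) and -1.78 in HOM against HET DN3 (SE 0.22, adjusted p = 2.17e-06). HET DN3 against WT DN3 was -0.11, with an interval of -0.54 to 0.32 (adjusted p = 0.768), and 0.06 without the 6 libraries with high Clu (adjusted p = 0.872). The second allele step differed from the first by -1.67 (SE 0.35, adjusted p = 0.00527). In this test of unequal steps, Il21r and Il4ra were the members called, both lower, where 8.09% of all genes were called, 3.09% higher and 4.99% lower.

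Il4ra, the private chain for IL-4, lies 23954 bases from Il21r on chromosome 7 and followed it in part. Like Il21r, Il4ra was called lower in HOM than in HET DN3, but it was not called between HOM and WT DN3. It read 1.26, 1.03, 0.504, 0.715 and 2.03 RPKM in WT DN3 libraries, 0.882 to 2.94 with a median of 2.46 in HET DN3, and 0.682, 1.10, 1.38, 0.401 and 1.09 in HOM. The groups overlapped in each pair. HOM against HET DN3 gave -1.19 (SE 0.40, adjusted p = 0.0307), while HET DN3 against WT DN3 gave 0.91 (SE 0.39, adjusted p = 0.125) and HOM against WT DN3 -0.28 (SE 0.41, adjusted p = 0.615), or 0.09 without WT DN3 replicate 5 (adjusted p = 0.885). The allele steps differed by -2.10 (SE 0.65, adjusted p = 0.0471). That call was lost on leaving out WT DN3 replicate 1, 2, 3 or 4, HET DN3 replicate 1, 2, 3 or 4, or HOM replicate 1, 2, 4 or 5 (adjusted p 0.0522 to 0.0948), and without the 6 libraries with high Clu (0.142). The call between HOM and HET DN3 was lost on leaving out HET DN3 replicate 1, 2, 3 or 4 or HOM replicate 1 or 4 (adjusted p 0.0511 to 0.0813) and without the 6 libraries with high Clu (0.0779). Il4ra overlaps Gm44876, annotated antisense to it, and the counting is not stated to use strand.

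The Vav1-iCre table repeats the allele series in other libraries for 4 members. It lists 2076 genes, none with a log2 change between -0.99 and 0.99 for HOM against the control libraries. The genes were thus selected on HOM. Of them, 100% were called in HOM against HET (46.8% higher and 53.2% lower) and 99.4% in HOM against WT (46.5% higher and 52.9% lower). HET against WT leaves HOM out, but the selection rule is not stated, and HET and WT libraries may have entered it. Calls and shares for HET against WT thus hold for the listed genes alone. Values are counts scaled so that the empty interval is centred on 0, and are not comparable with RPKM. Il9r read 245 and 273 scaled counts in WT, 1366, 1594, 1660 and 1301 in HET, and 4577, 4165 and 3599 in HOM. Its 3 groups did not overlap. Between HET and WT, Il9r was the 1 member of 4 called, with a log2 fold change of 2.52 (SE 0.20, fold 5.72, adjusted p = 0.000197), where 2.22% of the listed genes were called, 1.78% higher and 0.434% lower. With 2 WT libraries the WT spread is poorly known.

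For Il2rb, Vav1-iCre HOM libraries held 1731, 2192 and 1317 scaled counts, HET libraries 57.7, 46.7, 26.1 and 33.8, and WT libraries 8.98 and 49.1. HET overlapped WT and lay far below HOM (HET against WT 0.57, interval -0.65 to 1.80, adjusted p = 0.76, and -0.26 without WT replicate 1, adjusted p = 0.823). Il21r read 193, 204 and 156 in HOM, 1202, 1405, 1367 and 1788 in HET, and 1223 and 1462 in WT, so that only HOM was low (HET against WT 0.10, interval -0.35 to 0.56, adjusted p = 0.91). Il4ra read 116, 120.1 and 145 in HOM, 585, 549, 506 and 419.6 in HET, and 327 and 328 in WT. All 4 HET libraries lay above both WT libraries and all 3 HOM libraries below them, but HET against WT, 0.65 (SE 0.21), was not called by edgeR (adjusted p = 0.17), while DESeq2 gave an adjusted p of 0.023. HOM against WT was -1.37 for Il4ra, -2.87 for Il21r, 3.99 for Il9r and 5.98 for Il2rb, values given as a description because the selection required a change.

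**Figure D4:**
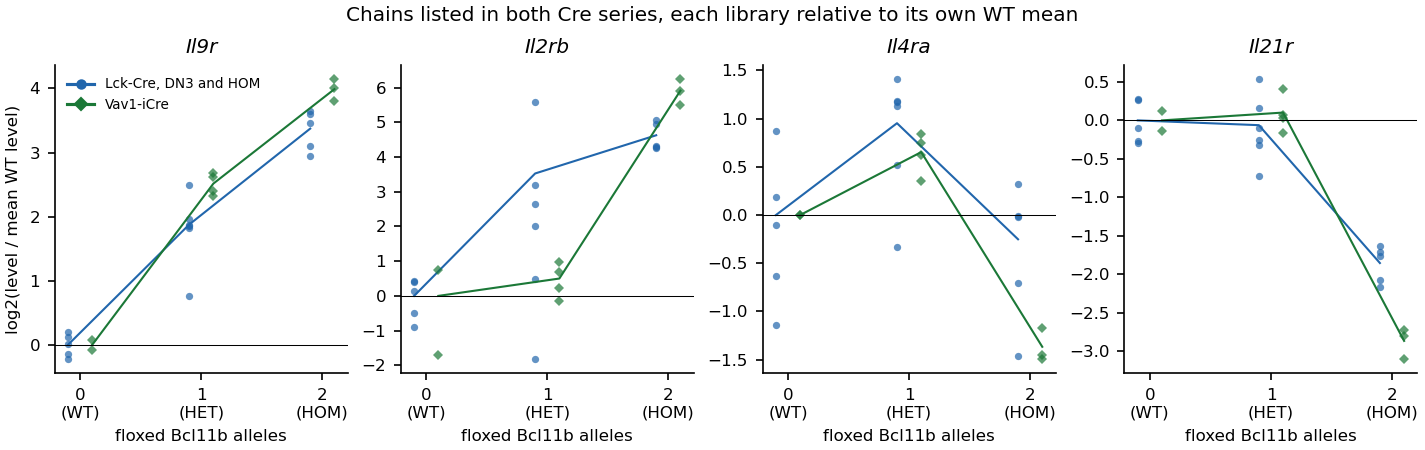
log2 of the level over the mean WT level of the same series (y axis, each panel with its own scale) by number of floxed Bcl11b alleles (x axis) for the 4 chains listed in both series. Circles are Lck-Cre libraries (WT DN3, HET DN3, HOM), diamonds Vav1-iCre libraries, and lines join the group means; Il9r climbs at each allele in both series, while Il21r stays near 0 at 1 allele and lies low at 2.

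In WT cells, Il7r, Il2ra, Il2rg and Il4ra were called lower in DN3 than in DN2. Of 8 members, 4 were called lower and none higher, where 21.5% of all genes were called, 12.2% higher and 9.30% lower. The labels number the libraries, and same-numbered WT DN3 and WT DN2 libraries deviated together, so a value blocked by replicate number is given where it changes a call. Il4ra fell the most, with 1.26, 1.03, 0.504, 0.715 and 2.03 RPKM in DN3 against 4.41, 12.4, 2.83 and 3.63 in DN2, without overlap (log2 fold change -2.31, SE 0.43, adjusted p = 0.000771). Il2ra read 217 ± 26.9 RPKM in DN3 and 337 ± 4.20 in DN2 (-0.56, SE 0.16, adjusted p = 0.0135).

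Il7r read 28.1 to 36.0 RPKM in DN3 against 44.8, 59.2, 42.0 and 42.3 in DN2, also without overlap (-0.46, SE 0.13, adjusted p = 0.013). Without WT DN2 replicate 2, the library with high Cd4, the Il7r estimate was -0.33 and missed the threshold (adjusted p = 0.0812). Without all 8 libraries that stood apart it was also -0.33 and was called (adjusted p = 0.00371). Il2rg gave -0.45 (SE 0.16, adjusted p = 0.0479), -0.48 with the replicate block (adjusted p = 0.0578) and -0.29 without WT DN2 replicate 2 (adjusted p = 0.244). Its call was also lost without WT DN2 replicate 3 or 4 or WT DN3 replicate 1, 2, 3 or 5 (adjusted p 0.064 to 0.105). Il9r had 2.88 to 3.89 RPKM in WT DN3 libraries against 1.89, 2.39, 1.71 and 1.40 in WT DN2 libraries, without overlap. Its change of 0.95 (SE 0.48) was not called in the fit of all libraries (adjusted p = 0.16). With only the groups compared in the fit it was 0.95 and was called (adjusted p = 0.00135). Without the libraries of high Clu, none of which is a WT library, it was 0.96 (adjusted p = 0.000175). The estimate thus hardly moved, while the spread shared with other groups did. Il15ra, Il2rb and Il21r were not called (adjusted p 0.382, 0.195 and 0.923).

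With 1 floxed allele the same step looked different for Il7r and Il9r, but the difference between genotypes was not called. Between HET DN3 and HET DN2, Il9r was called higher (1.91, SE 0.43, adjusted p = 0.00619) and Il2ra and Il4ra lower (-0.44 and -1.20, adjusted p = 0.046 and 0.0464), where 10.9% of all genes were called, 6.36% higher and 4.52% lower. HET DN2 libraries held 0.738, 10.3, 2.19, 1.70 and 1.77 RPKM of Il9r. The value of 10.3 comes from replicate 2, a library with high Clu, and overlaps the HET DN3 range of 5.75 to 19.0. Without the 6 libraries of high Clu the change was 2.73 (adjusted p = 1.09e-07), and with only HET DN3 and HET DN2 in the fit the call was lost (adjusted p = 0.0951). Il4ra held 3.93 to 6.14 RPKM in HET DN2, above all HET DN3 libraries. The Il2ra call was lost on leaving out any 1 HET DN2 library or HET DN3 replicate 1, 2, 5 or 6 (adjusted p 0.0519 to 0.12), and the Il4ra call on leaving out any 1 HET DN2 library or any HET DN3 replicate but 1 (0.0521 to 0.0979). Il2rb gave 3.14 (adjusted p = 0.139), and 5.43 without HET DN2 replicate 4 (adjusted p = 0.0367).

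Il7r was not called lower in HET cells: its change from HET DN2 was 0.22 (SE 0.12, adjusted p = 0.235), against -0.46 in WT cells. Without HET DN2 replicate 2, at 60.4 RPKM the highest of its group, it was 0.35 (adjusted p = 0.0422). The difference of the 2 steps was 0.68 (SE 0.17, 95% interval 0.32 to 1.03, adjusted p = 0.476). No gene of 12218 was called in this test by edgeR (0%), where 1112 had an unadjusted p under 0.05 and DESeq2 called 20. Without all 8 libraries that stood apart, the step difference for Il7r was 0.67 (adjusted p = 0.0329) and for Il9r 1.65 (adjusted p = 0.00803), and these were the 2 members called. Without the 6 libraries of high Clu alone, that of Il9r was 1.77 (adjusted p = 0.00277). Between HET DN2 and WT DN2, both sorted as YFP- cells, edgeR called no gene (0%). In that comparison 912 genes had an unadjusted p under 0.05 and DESeq2 called 182. For Il7r that comparison gave -0.08, with an interval of -0.34 to 0.18, and for Il9r 0.87, with an interval of -0.11 to 1.86, but -0.18 without HET DN2 replicate 2 (adjusted p = 0.986).

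**Figure D5:**
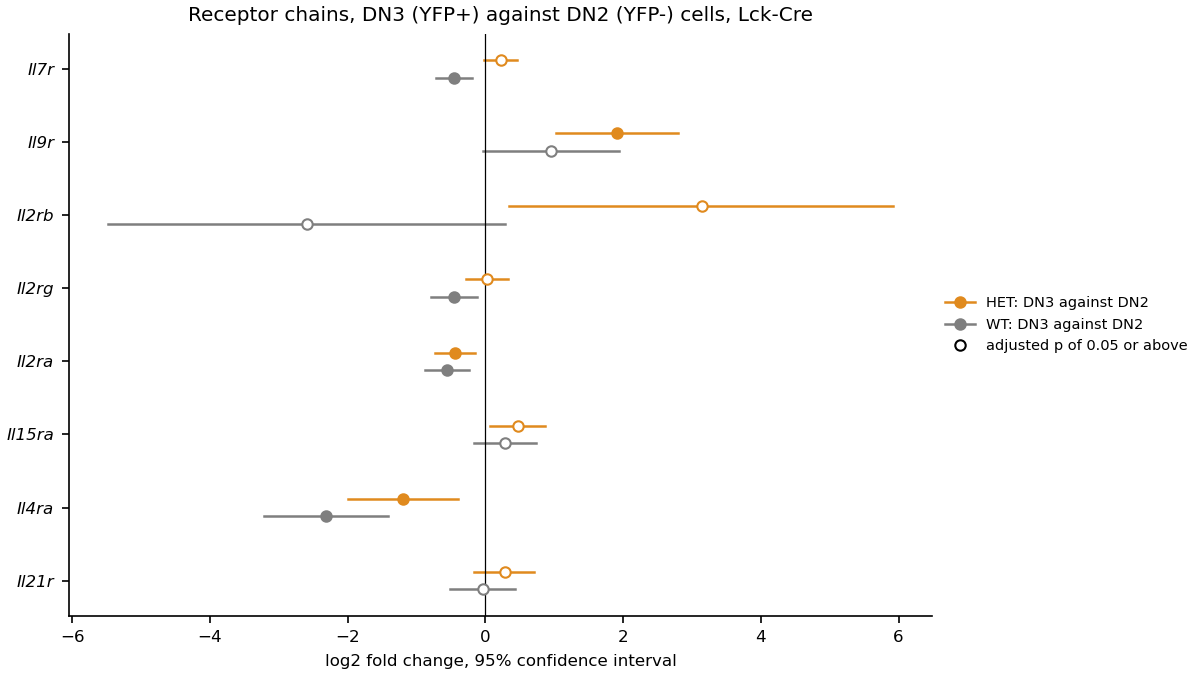
log2 fold change (x axis) of DN3 (YFP+) against DN2 (YFP-) cells for the 8 receptor chains (rows) in HET and WT cells of the Lck-Cre series. Points are edgeR estimates, bars 95% confidence intervals and open points have an adjusted p of 0.05 or above; Il7r lies at 0.22 in HET and -0.46 in WT, and Il4ra lies left of 0 in both.

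Against WT DN2, the earlier wild-type stage, HOM cells again had more Il7r and Il9r and less Il21r, and also less Il4ra. Il7r was higher in HOM by 1.00 (SE 0.13, adjusted p = 2.67e-06), Il9r by 4.30 (SE 0.53, adjusted p = 1.44e-06) and Il15ra by 0.64 (SE 0.22, adjusted p = 0.0214). Il21r (log2 fold change -1.93, SE 0.24, adjusted p = 1.22e-06) and Il4ra were lower (-2.59, SE 0.44, adjusted p = 6.67e-05). The Il15ra call was lost without HOM replicate 2 or WT DN2 replicate 2 or 3 (adjusted p 0.0573 to 0.0771), and its change was 0.31 without all 8 libraries that stood apart (adjusted p = 0.259). Those 5 members were called where 41.2% of all genes were, 21.3% higher and 19.9% lower. Il2ra (0.02) and Il2rg (-0.05) were not called (adjusted p 0.945 and 0.816). Il2rb differed by 2.01 (adjusted p = 0.259) with all libraries and by 5.99 (adjusted p = 0.00827) without WT DN2 replicate 2, where it read 13.7 RPKM against 0.0265 to 0.594 in the other WT DN2 libraries. Il2rb had no read in HET DN2 replicates 2 and 5, which allows up to 0.042 and 0.0507 RPKM at 3 counts.

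By share of the summed RPKM of the 7 members other than Il2ra, the sort marker, Il2rg made up 60.5%, 51.5% and 44.4% in WT DN3, HET DN3 and HOM. Il7r made up 21.9%, 27.0% and 33.7% in the same order, and Il9r 2.28%, 6.41% and 12.8%. Il21r made up 11.7%, 8.57% and 1.80%. The summed level was 149 ± 9.58, 192 ± 30.8 and 272 ± 27.5 RPKM (SD, n = 5, 6 and 5). These shares are descriptions of RNA and say nothing of receptor protein at the surface.

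Downstream and beside the receptors, changes were mixed. Of 7 genes of the JAK and STAT relay, all tested, 1 was called higher and 2 lower in HOM than in WT DN3. Of all genes tested, 39.4% were called there, so the count is near that share. Jak1, the kinase of the private chains, read 72.3 ± 9.94 against 52.6 ± 2.22 RPKM (0.43, adjusted p = 0.00532). Stat5a read 58.7 in HOM against 83.3 in WT DN3 (-0.54, adjusted p = 0.000905) and Stat5b 54.3 against 73.1 (-0.46, adjusted p = 0.00073). Jak3, which binds the gamma chain, read 29.4 ± 8.02 RPKM in HOM and 28.2 ± 3.83 in WT DN3. None of the 7 was called between HOM and HET DN3 or between HET DN3 and WT DN3, where 24.8% and 7.37% of all genes were. The median log2 fold change of the list in HOM against WT DN3 was 0.04, against 0.01 over all genes.

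Of 10 feedback and survival genes that STAT5 is known to regulate, 4 were called higher and 3 lower in HOM than in WT DN3, and none between HET DN3 and WT DN3. The shares of all genes called were 39.4% and 7.37%. The feedback inhibitor Cish was lower (2.04 ± 1.87 RPKM in HOM, 5.99 in WT DN3, log2 fold change -1.57, adjusted p = 0.00892), as were the survival gene Bcl2 (-0.77, adjusted p = 0.0101) and Socs3 (-0.74, adjusted p = 0.011). The adaptor Sh2b3 was higher (0.46, adjusted p = 0.00131). Between HOM and HET DN3, 3 were called higher, among them the inhibitor Socs1 (112 ± 38.0 against 62.1 ± 22.1 RPKM, 0.86, adjusted p = 0.0181), and 3 lower, where 24.8% of all genes were called. In the WT step, 3 were called lower in DN3 than in DN2, Bcl2 (-1.23), Pim1 (-0.94) and Socs2 (-1.73), where 21.5% of all genes were called.

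Transcripts of the ligands were scarce, and 1 of 6 reached the level needed for a test. That gene, Il21, read up to 13.7 RPKM, a level reached in HET DN3 replicate 1, the library of that group with high Cd4, and had no read in any WT DN3 library. The same library had a summed level of erythroid markers of 1199 RPKM, against at most 56.3 in the other Lck-Cre libraries. It was called lower in the test of unequal allele steps (adjusted p = 0.0443), where its fitted value depends on the prior count because WT DN3 held no read, and in none of the other Lck-Cre comparisons. Of the partner chains outside the family, Crlf2, which joins the IL-7 receptor chain to bind thymic stromal lymphopoietin, read 9.47 ± 2.31 RPKM in HOM and 16.6 ± 2.17 in WT DN3 (-0.84, adjusted p = 0.00142), the opposite direction to Il7r.

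Of 24 other cytokine receptor genes, 14 were tested, and 3 were called higher and 7 lower in HOM than in WT DN3, where 39.4% of all genes were called. Il27ra read 10.5 against 32.3 RPKM (-1.65, adjusted p = 2.19e-08), Il10ra 1.75 against 11.6 (-2.75, adjusted p = 3.64e-08) and Ifngr1 49.8 against 93.5 (-0.94, adjusted p = 4.38e-05), while Il12rb2 read 25.7 against 13.2 (0.93, adjusted p = 4.19e-06). The list's median was -0.33, where that of the 8 gamma-chain members was 0.49. Both lists were chosen with earlier results of these data known. Between HET DN3 and WT DN3, Il10rb was the 1 gene of this list called, where 7.37% of all genes were. It read 5.14 ± 2.92 against 2.72 ± 0.467 RPKM (0.87, adjusted p = 0.0392), and no value is given without the libraries that stood apart.

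Of 11 transcription factors known to act on Il7r or Il2rb, 9 were tested, and 4 were called higher and 2 lower in HOM than in WT DN3. Of all genes tested, 39.4% were called there. Runx3 was higher (41.7 ± 5.64 against 16.5 ± 3.57 RPKM, 1.31, adjusted p = 7.84e-07), as was Ikzf1 (0.44, adjusted p = 0.00295). Gfi1, a repressor of Il7r in mature T cells, read 29.6 against 50.5 RPKM (-0.80, adjusted p = 0.00021). None of the 9 was called between HET DN3 and WT DN3, where Il7r was, as were 7.37% of all genes. In the WT step Runx3, Runx1 and Foxp1 were called lower in DN3 than in DN2, where 21.5% of all genes were called.

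Genes whose 5 Lck-Cre group means followed a member most closely were found by the root mean square (RMS) difference of log2(RPKM + 1), each gene centred on its own mean. For Il7r these were Tnfrsf26 (RMS difference 0.06), Pbxip1 (0.07) and Degs2 (0.07). Pbxip1, for instance, averaged 34.3 RPKM in HOM, 20.3 in HET DN3, 12.4 in WT DN3, 19.4 in HET DN2 and 19.1 in WT DN2. For Il9r they were Ptpn14 (0.27), Fbp1 (0.32) and Heyl (0.33). The RMS difference is not scaled by the size of a gene's change, so it cannot be compared between members. For Il2rb they were Art2b (0.18), Cd2 (0.27) and Gimap4 (0.29). Like Il2rb, these averaged higher in WT DN2, which holds a library with high Cd4, than in WT DN3. The search itself selects for that order. For Il2rg they were Zfp456 (0.03), Coq8a (0.04) and Satb1 (0.04). With 5 points each, such likeness is a description.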

How the data were processed

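RNA was measured by sequencing in 25 Lck-Cre and 9 Vav1-iCre libraries, as 50-nt single reads per the labels. Tools named in the submitters' processing notes are HOMER, edgeR 3.6.8, STAR 2.4.0, Trimmomatic 033 and RSEM 1.2.25; builds named there are NCBIM37 and mm9. Per the file headers, the deposited tables hold counts of reads in the exons of each gene, made by HOMER without normalization. The deposited Length column, of a kind other than the counts, is the exon length in bases per the file headers. In 10 of the 25 Lck-Cre columns, 26 of 24505 values are missing and later values had shifted against the gene names; the names were restored, 114 further genes were left out with the 26, and 24365 remained. All 8 receptor genes stand before the shift.

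RPKM used the full library totals of 15772841 to 43105091 counts, so the rarest members rest on few reads (28 to 85 for Il2rb in WT DN3). Vav1-iCre columns hold 1329826 to 2836293 counts over the listed genes, which are part of each library. Genes with a mean of at least 1 RPKM in a Lck-Cre group were tested with edgeR 4.0.16 (R 4.3.3; TMM, trended dispersion, quasi-likelihood F test, 2-sided, Benjamini-Hochberg, called at an adjusted p under 0.05), with 5 groups in 1 fit and 9 comparisons. The Vav1-iCre table was fitted apart, scaled within controls and within HOM by TMM and between them on the empty interval, with 3 comparisons. SE is the log2 fold change over the root of F. The test was tried on simulated counts before use. DESeq2 1.42.0, limma 3.58.1 on log2(RPKM + 1) and on log2(RPKM + 0.1), other scalings and filters, each library left out and a replicate block were alternatives.

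Same-numbered WT DN3 and WT DN2 libraries deviated together (4 pairs, correlations 0.22 to 0.58), the pairing coming from the replicate numbers of the labels; in no other comparison did every pair pass 0.1. Replicates differed by more than sampling noise in every group. All 8 members are named in every comparison, with up to 4 called genes of each list by smallest adjusted p and the 3 genes of closest group means for Il7r, Il9r, Il2rb and Il2rg. The members and lists were chosen with earlier results of these data known. Promoters are from RefSeq; the overlap of genes is from GENCODE M21. A planned comparison of the proteins was not made.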

Additional observations from a re-analysis of the deposited data

Results flagged for a closer look

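In 8 of the 44 groups of 4 to 6 libraries looked at, 1 library of a member stood far from the others by Dixon's criterion at the 95% level, where chance flags about 1 in 20 groups. In WT DN2, replicate 2, the library with Cd4 at 69.4 RPKM, was high in Il7r (59.2 RPKM, others 42.0 to 44.8), in Il2rb (13.7, others 0.0265 to 0.594) and in Il4ra (12.4, others 2.83 to 4.41). In HET DN3, replicate 1, the library with Cd4 at 80.3 RPKM, was high in Il2rb (27.0, others 0.158 to 5.11). In HET DN2, replicate 4 was high in Il2rb (3.19, others 0 to 0.525), with Cd4 at 13.9 RPKM, the highest of that group.

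HET DN2 replicates 1 and 2 both had Clu over 100 CPM. Replicate 1 was high in Il2ra (458 RPKM, others 340.3 to 362) and low in Il21r (7.36, others 14.8 to 16.0). Replicate 2 was high in Il9r (10.3, others 0.738 to 2.19). The part of other cells in these values was not tested.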

How the results depend on the processing

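No value called in the fit as reported or under the alternative changed sign, while 70 recomputed values that were called in neither did. Most lay near 0, but Il2rb changed sign without WT DN2 replicate 2 in WT DN3 against WT DN2 (1.39, reported -2.59) and in HET DN2 against WT DN2 (1.74, reported -2.25), and its allele steps without HET DN3 replicate 1 (0.54, reported -2.37). Of 943 member values recomputed under alternatives other than leaving out 1 library, 31 were no longer called and 14 newly called; of 920 with 1 library left out, the numbers were 62 and 6. The calls of Il7r, Il9r and Il21r in HOM against WT DN3 and in HOM against HET DN3 were not among those lost. Counts of called genes moved by over 1.5 times in several comparisons. HET DN3 against WT DN3 had 900 in the fit as reported, 438 without the low-level filter, 1877 by DESeq2, 458 and 537 by limma with pseudocounts of 1 and 0.1, 65 with only the groups compared and 1573 with the replicate block. Exclusions of 3 kinds were chosen after seeing the data: the 6 libraries with high Clu, the 2 with high Cd4, and all 8, which gave 212, 232 and 75 there. Elsewhere, HET DN2 against WT DN2 gave 0 as reported, 182 by DESeq2 and 1 without the 6 or all 8; the difference of stage steps gave 0, then 20 by DESeq2, 2 without the 6 and 5 without all 8; the difference of allele steps gave 988, then 1577 by DESeq2, 571 and 545. With only the groups compared, WT DN3 against WT DN2 gave 4497 against 2622 and HET DN3 against HET DN2 461 against 1329. In the Vav1-iCre series, DESeq2 called 140 genes and 2 members in HET against WT, where edgeR called 46 and 1. Members called fell to 1, from 3, in HET DN3 against HET DN2 (no filter, only these groups, replicate block, without the 6) and to 1, from 2, for the allele steps (no filter, limma with 1, only these groups, and each exclusion). Without the 2 libraries they were 2, not 4, in WT DN3 against WT DN2; for the stage steps they were 1 without the 6 and 2 without all 8. The causes were not tested.

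With 1 library left out at a time, called genes ranged from 3925 to 4818 in HOM against WT DN3 (members 5 to 6), 2387 to 3308 in HOM against HET DN3 (3 to 5), 10 to 1662 in HET DN3 against WT DN3 (0 to 2), 628 to 1321 for allele steps (1 to 2), 1794 to 2342 in WT DN3 against WT DN2 (2 to 4), 838 to 1632 in HET DN3 against HET DN2 (1 to 2), 4215 to 5108 in HOM against WT DN2 (4 to 5) and 0 to 1 for stage steps (0 to 0), with 0 throughout in HET DN2 against WT DN2. In the Vav1-iCre series they ranged from 2058 to 2074 in HOM against HET (4 to 4), 1884 to 2034 in HOM against WT (4 to 4) and 24 to 63 in HET against WT (1 to 1). Where this leaves 1 Vav1-iCre WT library, that library is assumed to vary like the other groups. The replicate numbers paired libraries only in WT DN3 against WT DN2, where the block gave 2529 called genes and lost Il2rg. Depth limits Il2rb in WT DN3 (28 to 85 reads) and in HET DN2, where 2 libraries held no read.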
